A study of Mus musculus with 12 samples.

Results

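The Kruppel-like factors are zinc finger transcription factors, and 10 of their genes, Klf2, Klf3, Klf4, Klf6, Klf7, Klf9, Klf10, Klf11, Klf13 and Klf16, were taken by name from the 23420 genes of a count table. RNA had been sequenced from bone marrow cells sorted as monocytic myeloid-derived suppressor cells (M-MDSCs), which carry CD11b and high Ly6C and lack Ly6G. The cells came from male C57BL/6JNIA mice of an aging colony, 6 of them young (6 months) and 6 aged (24 months), and each mouse gave 1 library. No treatment, allele or transgene was named for either group. All 10 genes passed the filter on low counts and were compared between the ages.

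Kruppel-like factors bind GC-rich and CACCC sequences through a shared set of zinc fingers at their carboxyl end, and differ in the regions that recruit partner proteins. Klf2, Klf4, Klf6 and Klf7 belong to the branch that mostly activates genes, Klf3 represses through CtBP proteins, and Klf9, Klf10, Klf11, Klf13 and Klf16 repress through Sin3a. In myeloid cells, Klf4 is known for promoting monocyte differentiation, Klf2 for restraining inflammatory activation, and Klf6 for favouring inflammatory gene expression in macrophages.

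Library totals ran from 8737941 to 16300374 counts at 24 months and from 4613239 to 9079237 at 6 months, and the lowest belonged to young mice 2 and 1. Of 9742 genes tested with the quasi-likelihood test of edgeR, 4425 differed between the ages at an adjusted p under 0.05, a share of 45.4%. Of these, 2185 were higher and 2240 lower in aged mice, against 1682 higher and 2762 lower without the normalization factors of edgeR. Counts of 3, the floor used here, corresponded to 0.188 to 0.35 CPM (counts scaled to library size) in aged and 0.306 to 0.643 CPM in young libraries. The log2 fold changes fell with exon length across genes (Spearman rho −0.48, a description across genes, which are not replicates). Sample numbers in the count columns ran from 11 to 16 in young mice and from 17 to 26 in aged mice, so sample number and age cannot be told apart. Of the genes that define the sort, Itgam (CD11b) lay at 2660 to 3543 CPM, and Ly6c2 at 605 to 799 CPM in aged and 367 to 595 CPM in young mice. Neutrophil genes were also abundant, with Ngp at 39630 CPM in aged and 30944 CPM in young mice, whereas the monocyte receptor Ccr2 was at 5.03 to 62.0 CPM in aged and 23.9 to 54.7 CPM in young mice. The values below therefore describe the sorted fraction as a whole, in which fewer cells of a type and less RNA per cell cannot be told apart.

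The 3 genes that were lower in aged mice are transcribed from promoters of different sequence. The 250 bases before the start of each gene are shown because Klf2 is a known target of MEF2 factors and because members of the family are known to bind GC boxes. Sequences are from RefSeq on GRCm38.p6, read 5′ to 3′ on the strand of the gene, and 8 of the 10 genes had an entry. Capitals mark a match to the MEF2 motif in Klf2 and the GC box GGGCGG, on either strand, in Klf4 and Klf7.
Klf2, chr8:72318812-72319061, plus strand: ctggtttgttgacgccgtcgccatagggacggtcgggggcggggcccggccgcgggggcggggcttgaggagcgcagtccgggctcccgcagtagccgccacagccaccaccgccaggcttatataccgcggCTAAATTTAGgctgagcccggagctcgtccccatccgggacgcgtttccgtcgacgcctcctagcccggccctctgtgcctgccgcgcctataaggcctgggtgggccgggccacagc
Klf4, chr4:55532476-55532725, minus strand: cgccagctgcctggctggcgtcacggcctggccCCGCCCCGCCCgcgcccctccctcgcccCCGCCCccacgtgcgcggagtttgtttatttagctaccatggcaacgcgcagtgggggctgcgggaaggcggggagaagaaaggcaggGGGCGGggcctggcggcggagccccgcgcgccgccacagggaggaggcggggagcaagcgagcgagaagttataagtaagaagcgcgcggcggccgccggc
Klf7, chr1:64121390-64121639, minus strand: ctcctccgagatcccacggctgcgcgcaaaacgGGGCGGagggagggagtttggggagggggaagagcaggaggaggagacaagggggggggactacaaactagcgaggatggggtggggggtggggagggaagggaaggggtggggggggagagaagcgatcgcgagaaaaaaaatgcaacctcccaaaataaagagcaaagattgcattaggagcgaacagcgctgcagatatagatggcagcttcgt

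The MEF2 match of Klf2, ctaaatttag, reads as a match on both strands and lies from −118 to −109 relative to the start. None of the other 7 promoters held a match to the MEF2 motif, which occurs in 2.92% of 32851 mouse promoters of the same length. The CArG motif, bound by serum response factor, had no match in the 8 promoters and matched in 1.47% of all. The GC box, found in 32.7% of all promoters, matched 6 times in Klf3, 4 times each in Klf4 and Klf11, 3 times in Klf13, 2 times in Klf2, once each in Klf6 and Klf7 and not in Klf9. Of the 4 matches in Klf4, those starting at −217 and −212 overlap by 1 base. The CACCC letters, found in 52% of all promoters on either strand, matched 5 times in Klf3, 3 times in Klf7, once each in Klf2, Klf9 and Klf13 and not in Klf4, Klf6 or Klf11. TGACG, the core of a cyclic AMP response element, occurred in 17.8% of all promoters and once each in Klf2, Klf4, Klf9 and Klf13. A match describes the letters in this window only, and binding was not measured.

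The 10 genes spanned a wide range of expression. Levels per kilobase of the exon length in the table, averaged over the 12 mice, were 201 CPM per kilobase for Klf2, 155 for Klf6, 68.8 for Klf13, 61.0 for Klf3, 37.3 for Klf7, 17.6 for Klf10, 3.75 for Klf16, 3.50 for Klf11, 1.63 for Klf9 and 0.657 for Klf4. Most steps of this order held within single mice. Klf2 was above Klf6 in 11 of 12 mice, Klf6 above Klf13 in 12, Klf13 above Klf3 and Klf3 above Klf7 in 11 each, and Klf9 above Klf4 in 10. Klf16 and Klf11 were not separated, with Klf16 the higher in 7 of 12 mice.

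**Figure D1:**
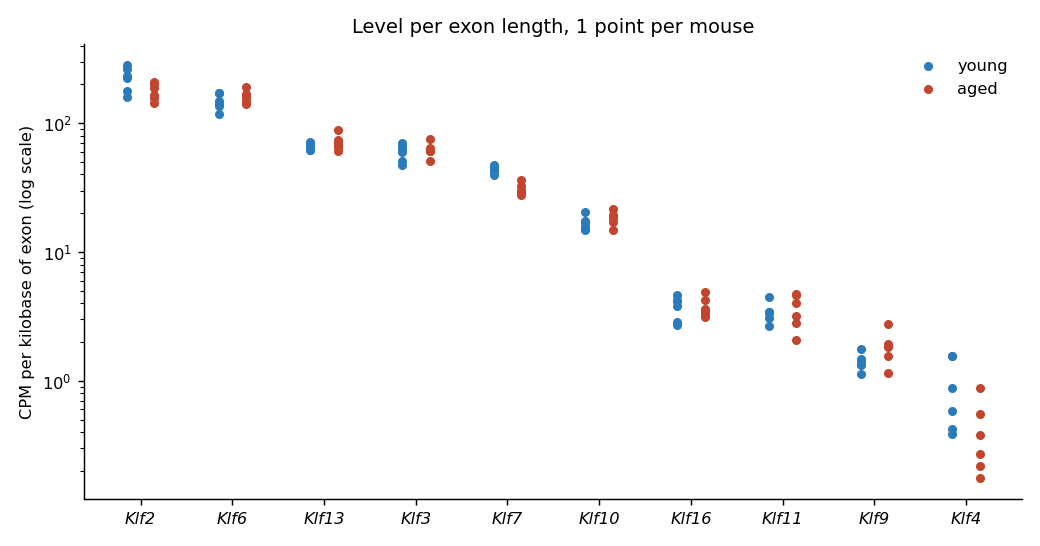
Level of each Kruppel-like factor, in CPM per kilobase of exon on a log scale, with 1 point per mouse (young blue, aged red) and genes in order of their mean. Klf2 and Klf6 lie above 100, and Klf9 and Klf4 lie lowest.

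The place of Klf7 in this order depends on its gene model. The exons counted for Klf7 sum to 1336 bases, and its longest GENCODE transcript has 7662, with which its level is 6.51 CPM per kilobase and below Klf10 at 17.6. The same lengths are 2314 and 5221 bases for Klf3 and 3263 and 4486 for Klf9, and they give levels of 27.0 and 1.19 CPM per kilobase. For the other 7 genes both lengths were nearly equal.

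Between the ages, 3 of the 10 genes were lower in aged mice, Klf2, Klf4 and Klf7, and none was higher. The share of all genes tested that was called lower was 23% and the share called higher 22.4%. At an unadjusted p under 0.05, 1 gene, Klf9, was higher in aged mice, and neither DESeq2 nor limma-voom called any member higher. DESeq2 called the same number lower, 3, and limma-voom 2. The median log2 fold change of the 10 genes was 0.06, beside 0.01 over all genes tested.

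**Figure D2:**
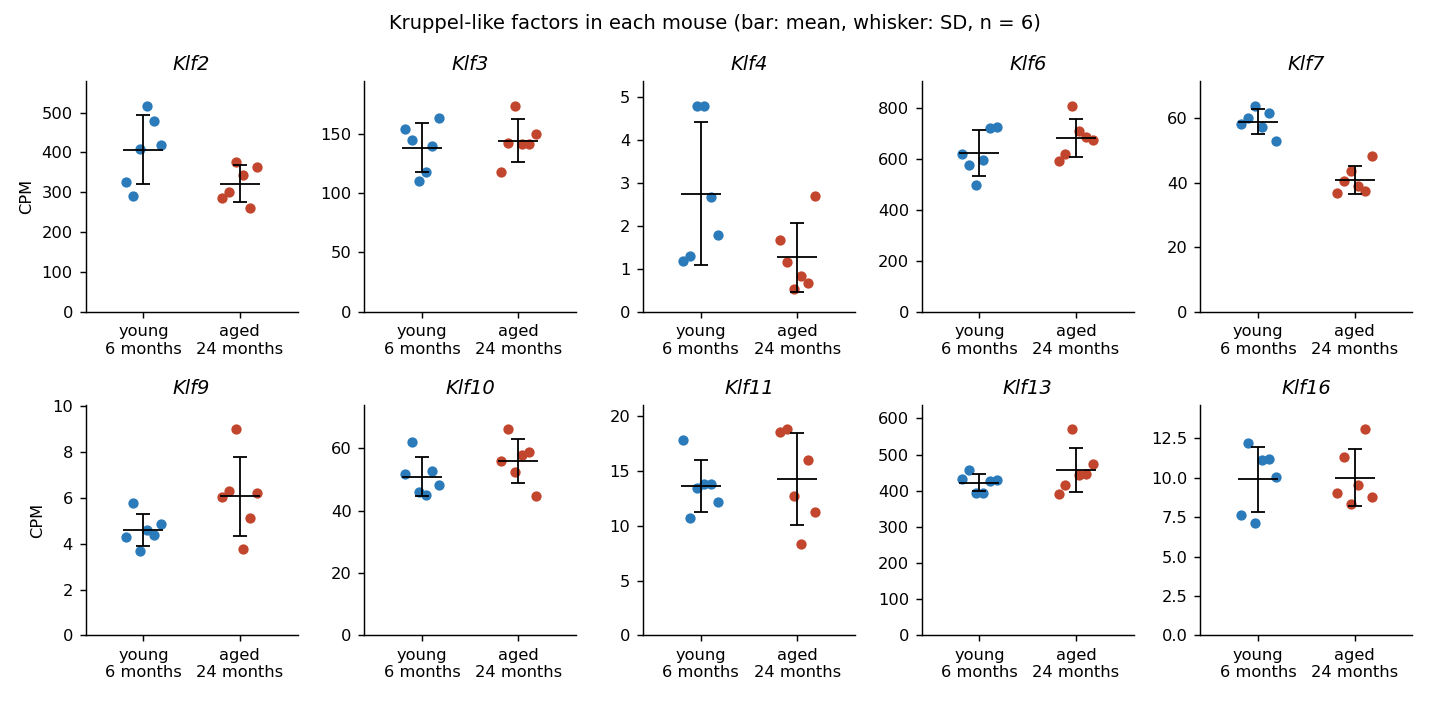
CPM of the 10 Kruppel-like factors in each of 6 young (blue) and 6 aged (red) mice, with the mean as a bar and the SD as a whisker, each axis starting at 0. The aged mice lie below all young mice for Klf7, at 36.8 to 48.2 against 52.8 to 63.8 CPM, and the ages overlap for the other 9 genes.

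Klf7, a widely expressed factor known for its part in the outgrowth of neurons, lies on mm10 chromosome 1 from 64035671 to 64121389 on the minus strand. It had the smallest p of the 10. The lowest, median and highest levels were 36.8, 39.6 and 48.2 CPM in aged mice and 52.8, 59.0 and 63.8 CPM in young mice. Every aged mouse was below every young mouse, as for 12.1% of all genes tested, while the reverse held for 9.68% of genes and for no member. The means were 40.9 ± 4.33 CPM (SD, n = 6) in aged and 58.9 ± 3.84 CPM (SD, n = 6) in young mice, 1.44-fold higher in young mice. The log2 fold change was −0.53 (standard error 0.0792, 95% interval −0.69 to −0.36, adjusted p = 0.000175, edgeR). It was called with each of the 12 mice left out in turn, with log2 fold changes from −0.58 to −0.50, and under all 14 other settings. Adjusting for the longest GENCODE transcript moved the log2 fold change to −0.20 (adjusted p = 0.0252), and adjusting for the exon length in the table moved it to −0.78. The size of the Klf7 difference thus depended on which length was used, and its direction did not.

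Klf2, the flow- and quiescence-associated factor, lies on chromosome 8 from 72319062 to 72321654 on the plus strand. Its levels were 261, 322 and 377 CPM (lowest, median and highest) in aged mice and 291, 414 and 517 CPM in young mice. The groups overlapped, since young mice 1 and 2, at 325 and 291 CPM, lay within the aged range and the other 4 young mice, at 408 to 517 CPM, lay above it. The means were 322 ± 46.0 CPM (SD, n = 6) in aged and 407 ± 86.8 CPM (SD, n = 6) in young mice. The log2 fold change was −0.34 (standard error 0.134, 95% interval −0.62 to −0.05) with an adjusted p of 0.0499 by edgeR. This call stood just inside the threshold. It was kept in 4 of 12 fits without 1 mouse, which gave log2 fold changes from −0.42 to −0.26 and adjusted p from 0.0136 to 0.122, and was lost without aged mouse 1, 2, 5 or 6 or young mouse 5, 6, 9 or 10. It was kept in 6 of 14 other settings, with log2 fold changes from −0.54 to −0.30, all negative.

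Klf4, which promotes monocyte differentiation and is one of the factors used to induce pluripotency, lies on chromosome 4 from 55527137 to 55532475 on the minus strand. It was the least abundant of the 10, with 5 to 43 counts per library in aged and 6 to 47 in young mice. Its levels were 0.535, 0.999 and 2.69 CPM (lowest, median and highest) in aged mice and 1.17, 2.22 and 4.79 CPM in young mice. The ages overlapped, with aged mouse 7 at 2.69 CPM above young mice 1, 2, 9 and 10, and with young mice 5 and 6 above all others. The means were 1.26 ± 0.813 CPM (SD, n = 6) in aged and 2.74 ± 1.66 CPM (SD, n = 6) in young mice, a coefficient of variation of 64.5% and 60.7%. The log2 fold change was −1.13 (standard error 0.429, 95% interval −2.04 to −0.22, adjusted p = 0.0428, edgeR), or 2.19-fold lower in aged mice. It was kept in 5 of 12 fits without 1 mouse, with log2 fold changes from −1.57 to −0.90, and was lost without aged mouse 2, 4, 5 or 6 or young mouse 5, 6 or 9. In 7 of the 12 other settings that tested Klf4 it was called, and all 12 gave a lower level in aged mice.

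Klf6, the remaining member of the activating branch and the gene with the highest CPM of the family, did not pass the test. It lies on chromosome 13 from 5861489 to 5870393 on the plus strand. Its means were 683 ± 76.4 CPM (SD, n = 6) in aged and 624 ± 88.7 CPM (SD, n = 6) in young mice, a log2 difference (aged over young) of 0.13 with a 95% interval from −0.08 to 0.34 (adjusted p = 0.299, edgeR). It was not called in any of the 12 fits without 1 mouse or the 14 other settings.

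Among the Sin3a-binding repressors, Klf9, induced by glucocorticoids and thyroid hormone, had the largest positive value. It lies on chromosome 19 from 23141226 to 23166911 on the plus strand. Its levels were 3.79, 6.11 and 8.98 CPM (lowest, median and highest) in aged mice and 3.69, 4.49 and 5.79 CPM in young mice. Thus 4 aged mice were above every young mouse and the other 2, aged mice 5 and 6, lay within the young range. The log2 fold change was 0.41 (standard error 0.189, 95% interval 0.00 to 0.81), with an adjusted p of 0.0909 by edgeR. Without aged mouse 5 it was 0.51 (adjusted p = 0.0256).

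Klf13, a regulator of the chemokine gene Ccl5 in lymphocytes, lies on chromosome 7 from 63886351 to 63938915 on the minus strand and has 6396 exon bases in the table, the most of the 10 by that length. Its means were 457 ± 61.6 CPM (SD, n = 6) in aged and 423 ± 24.0 CPM (SD, n = 6) in young mice, a log2 difference of 0.11 with an interval from −0.06 to 0.29 (adjusted p = 0.282, edgeR). When each library was adjusted for exon length, Klf13 was called higher at 0.41 (adjusted p = 0.00223). It was the only member called in this direction by that setting. The coefficient of variation was 13.5% in aged and 5.67% in young mice, and this difference was not tested.

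Klf10 and Klf11, first described as genes induced early by TGF-beta, were present at different levels and did not pass the test. Klf10, on chromosome 15 from 38294413 to 38300707, was at 56.0 ± 7.11 CPM (SD, n = 6) in aged and 50.9 ± 6.17 CPM (SD, n = 6) in young mice, with a 95% interval of the log2 fold change from −0.07 to 0.35 (adjusted p = 0.261, edgeR). Klf11, on chromosome 12 from 24651371 to 24662782, was at 14.3 ± 4.2 CPM (SD, n = 6) and 13.6 ± 2.36 CPM (SD, n = 6), with an interval from −0.33 to 0.45 (adjusted p = 0.811, edgeR). The sign of the Klf11 value changed between settings, and that of Klf10 did not.

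Klf16, a repressor close to Klf9 and Klf13 in sequence, and Klf3 were likewise not called. Klf16, on chromosome 10 from 80567121 to 80577296, ranged from 8.34 to 13.1 CPM in aged and from 7.16 to 12.2 CPM in young mice, with an interval from −0.31 to 0.34 (adjusted p = 0.940, edgeR). Klf3, the CtBP-dependent repressor, lies on chromosome 5 from 64803523 to 64830129 and was at 144 ± 18.04 CPM (SD, n = 6) and 138 ± 20.6 CPM (SD, n = 6), with an interval from −0.16 to 0.29 (adjusted p = 0.644, edgeR). These intervals bound the log2 differences that the data allow and do not show equal levels.

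**Figure D3:**
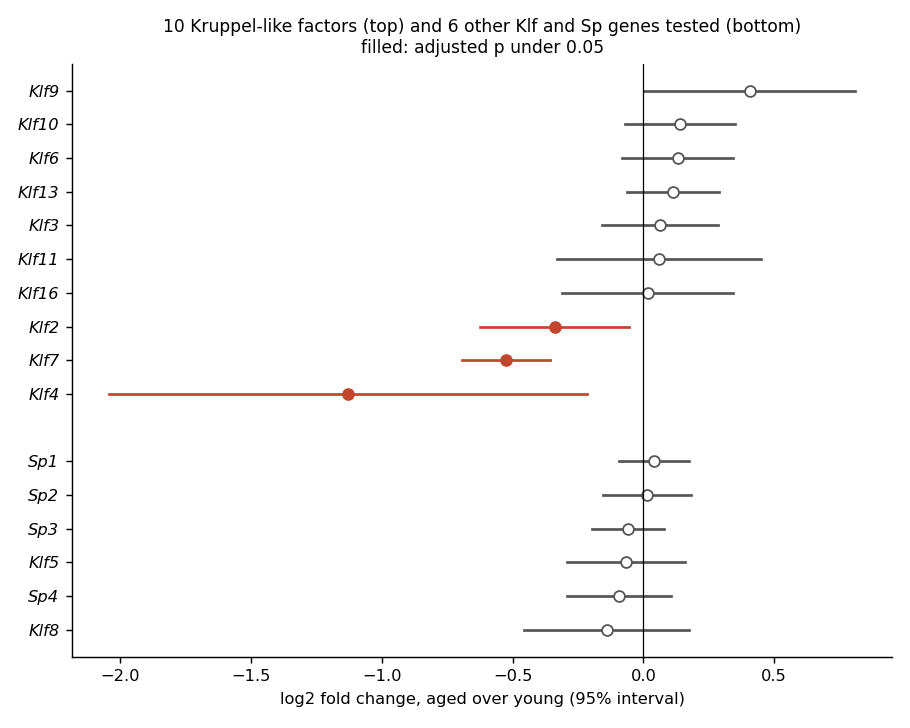
Log2 fold changes of aged over young mice with 95% intervals for the 10 Kruppel-like factors (top) and for the 6 other Klf and Sp genes that were tested (bottom), with filled points where the adjusted p of edgeR was under 0.05. Klf2, Klf7 and Klf4 lie below 0 with intervals that do not reach it, and all 6 other genes have intervals across 0.

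Of the 16 other Klf and Sp genes of the table, 6 had enough counts to be tested. None of the 6 was called, beside 45.4% of all genes tested. None had an unadjusted p under 0.05 in edgeR, and DESeq2 and limma-voom called 0 as well. Klf5, an activator of proliferation in epithelia, ranged from 75.3 to 113 CPM in aged and from 79.2 to 112 CPM in young mice, and Klf8, another CtBP-binding repressor, was at 4.16 ± 0.600 and 4.55 ± 0.575 CPM. The Sp genes encode related factors that bind the GC box. Their log2 fold changes were 0.04 for Sp1, 0.01 for Sp2, −0.06 for Sp3 and −0.09 for Sp4. Sp1, the most studied of them, was called higher only when libraries were adjusted for length, at 0.44 (adjusted p = 0.000498) with the exon length of the table and 0.38 (adjusted p = 0.00092) with that of the longest GENCODE transcript. Klf1, the erythroid factor, and Klf12 had at most 1 count in any library, Klf14 and Klf17 had 0 in all, and Klf15 had at most 7.

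The 10 genes differed in how they behaved under other processing. Klf7 was called throughout, Klf2 and Klf4 were negative throughout but called in some fits only, and Klf9 and Klf13 passed the threshold on the positive side in few. Klf3, Klf6, Klf10, Klf11 and Klf16 were called in none.

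**Figure D4:**
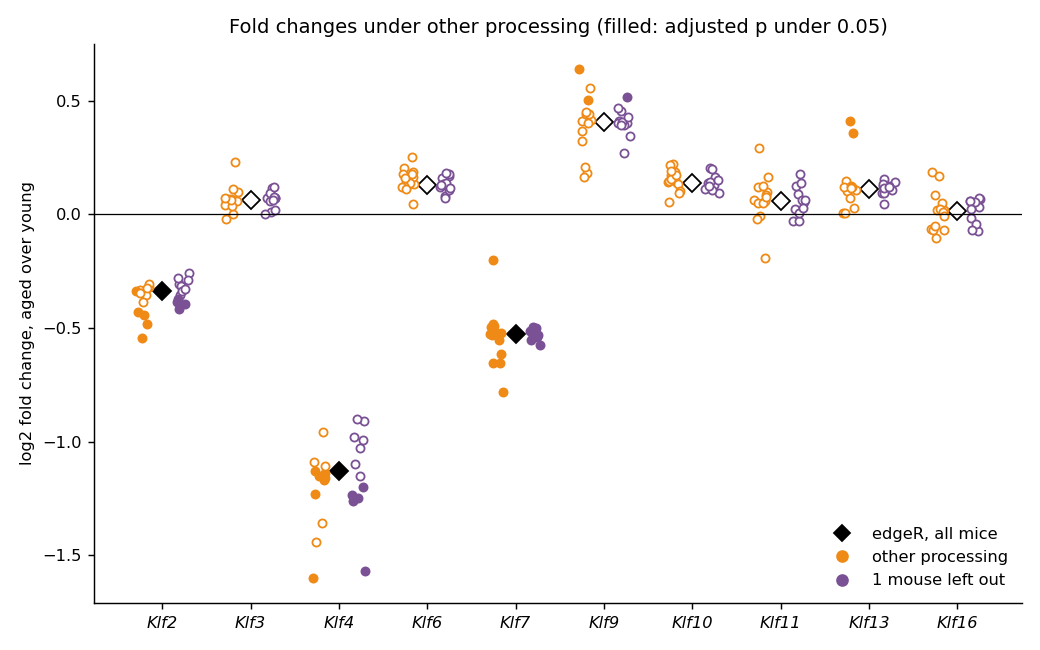
Log2 fold change of each Kruppel-like factor with all mice in edgeR (black diamond), under other processing (orange) and with 1 mouse left out (purple), with filled symbols where the adjusted p was under 0.05. All Klf2, Klf4 and Klf7 values lie below 0, and only those of Klf7 are all filled.

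Proteins that Kruppel-like factors recruit were described next, because they carry out the repression or activation. Of 12 such cofactor genes tested, 5 were lower and 1 was higher in aged mice, with a median log2 fold change of −0.10, where 23% of all genes tested were lower and 22.4% higher. Ctbp2, the corepressor of Klf3 and Klf8, had the largest fall. It was at 25.3 ± 4.0 CPM (SD, n = 6) in aged and 39.2 ± 4.01 CPM (SD, n = 6) in young mice, with a log2 value of −0.63 (standard error 0.105, adjusted p = 0.000354, edgeR). Ep300, an acetyltransferase that acts with activators, had the smallest p, at 430 ± 44.4 against 663 ± 32.9 CPM, a log2 difference of −0.62 (standard error 0.0734, adjusted p = 2.94e-05, edgeR). Its paralogue Crebbp and the acetyltransferase gene Kat2b were lower too, by −0.55 and −0.47, and Sin3a, the scaffold bound by Klf9, Klf10, Klf11, Klf13 and Klf16, by −0.28 (adjusted p = 0.00388, edgeR). Sap30, a subunit of the Sin3a complex, rose by 0.57 (standard error 0.112, adjusted p = 0.00102, edgeR). Adjusted for exon length, the same list gave 3 lower and 2 higher.

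The kinase cascade through Map2k5 and Mapk7 (ERK5) to the MEF2 factors is a well known route to Klf2 and Klf4 transcription. The list tested had 11 genes, those of this route and the histone deacetylase genes Hdac4, Hdac5, Hdac7 and Hdac9, which are not part of the cascade. Of the 11, 3 were lower in aged mice and 0 were higher, with a median of −0.16. The share of the whole list is close to the 23% called lower among all genes tested. The deacetylase genes were not called, at 0.07, −0.11, −0.06 and −0.48, so without them the share called lower is larger. Without TMM factors 6 of the 11 were lower, where 2762 of 9742 genes tested were. At an unadjusted p under 0.05 there were 6 lower and 0 higher, and DESeq2 and limma-voom also called 3 lower and 0 higher. Mef2d, which had the largest fall among the genes called and the smallest p of the list, was at 27.0 ± 3.59 CPM (SD, n = 6) in aged and 37.6 ± 4.26 CPM (SD, n = 6) in young mice, a log2 difference of −0.48 (standard error 0.102, adjusted p = 0.00186, edgeR). Map2k5 had a value of −0.42 (adjusted p = 0.00365) and Mef2c of −0.36 (adjusted p = 0.0224) in the same test. Mapk7 itself did not pass, at −0.11 (adjusted p = 0.296). Adjusted for exon length, 2 of these genes were lower and 1 higher.

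Genes known as targets of Klf2 in lymphocytes and endothelium were not called. Of 6 listed, 5 were tested, with a median log2 fold change of −0.11 and no call by edgeR, DESeq2 or limma-voom. None had an unadjusted p under 0.05, whereas edgeR called 45.4% of all genes tested. Without aged mouse 7, or with aged mice 1, 2 and 4 alone, edgeR called 1 of the 5 higher, and without aged mouse 7 the median was 0.07. S1pr1, which guides lymphocyte exit, was at 7.39 ± 2.25 CPM (SD, n = 6) in aged and 8.01 ± 1.72 CPM (SD, n = 6) in young mice.

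Klf2, Klf4, Klf6 and Klf10 can be induced within minutes of a stimulus, as immediate early genes are, so 29 immediate early genes were listed. Of the 24 that could be tested, 15 were lower and 0 higher in aged mice, with a median log2 fold change of −0.41, and DESeq2 and limma-voom called 14 lower and 0 higher. Among all genes tested, 23% were lower and 22.4% higher. At an unadjusted p under 0.05 the counts were 15 and 0. Aged mice were all below young mice for 6 of the 24, and for 12.1% of all genes tested. The summed level was 3342 to 4682 CPM in aged and 5092 to 6824 CPM in young mice, so the sums did not overlap. The mean log2 CPM of the same genes did overlap, at 5.55 to 6.12 in aged and 5.97 to 6.72 in young mice. Fosb, a subunit of the AP-1 factor, had the largest fall, with a log2 difference of −1.98 (standard error 0.485, adjusted p = 0.0043, edgeR). Zfp36, which encodes an mRNA-destabilizing protein, had the smallest p, at 343 ± 42.0 CPM (SD, n = 6) in aged and 708 ± 154 CPM (SD, n = 6) in young mice, a log2 difference of −1.05 (standard error 0.132, adjusted p = 5.20e-05, edgeR). With aged mice 1, 2 and 4 alone, 7 were called, and with aged mice 5, 6 and 7 alone, 13, all lower. Genes of this kind also respond to the handling of cells, and the part of handling in the levels of Klf2 and Klf4 was not tested. Of 6 heat shock genes tested, 2 were lower and 0 higher, led by the co-chaperone gene Dnaja1 at −0.65 (standard error 0.103, adjusted p = 0.000262, edgeR). DESeq2 and limma-voom called 3 and 2 lower and 0 higher, and at an unadjusted p under 0.05 there were 2 and 0.

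Within an age, the members were set against the mean log2 CPM of these 24 genes, which makes 20 relations of 10 genes in 2 ages. In the 6 young mice Klf2 followed that mean, with Pearson's r of 0.97 (exact permutation test, two-sided, p = 0.00139, adjusted over 20 relations p = 0.0278). Without TMM factors r was 0.98 and the adjusted p 0.0556 by the same exact permutation test, which is above the threshold. Spearman's rho was 1 (exact permutation p = 0.00278, adjusted p = 0.0556), and r was 0.95 without the 2 mice farthest from the median. The exact permutation p of 0.00139 for r and 0.00278 for rho are the smallest that 6 mice can give. A single rank relation, even a perfect one, could therefore not pass after adjustment over 20 relations. In the 6 aged mice r was −0.12 (exact permutation p = 0.826) and rho 0.086 (exact permutation p = 0.919). Without the 2 aged mice farthest from the median r was 0.56, so the sign of the aged value rests on them, and the difference between the ages was not tested. Klf2 and the mean were both lowest in young mice 1 and 2, whose libraries were the smallest, and both highest in young mouse 6, whose library was the largest of the young. The part of library size in this relation was not tested.

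Klf4 had r of 0.67 and rho of 0.77 in young mice (exact permutation p = 0.171 and 0.103, adjusted p = 0.744 and 0.685), and r was 0.29 without the 2 mice farthest from the median. Klf7 had r of −0.23 and rho of −0.26 (exact permutation p = 0.676 and 0.658). Apart from Klf2 in young mice, no relation reached an adjusted p under 0.05. With so few mice per relation, the tests could call almost only a perfect ordering. The lack of calls therefore does not show that the other genes were unrelated to the mean.

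**Figure D5:**
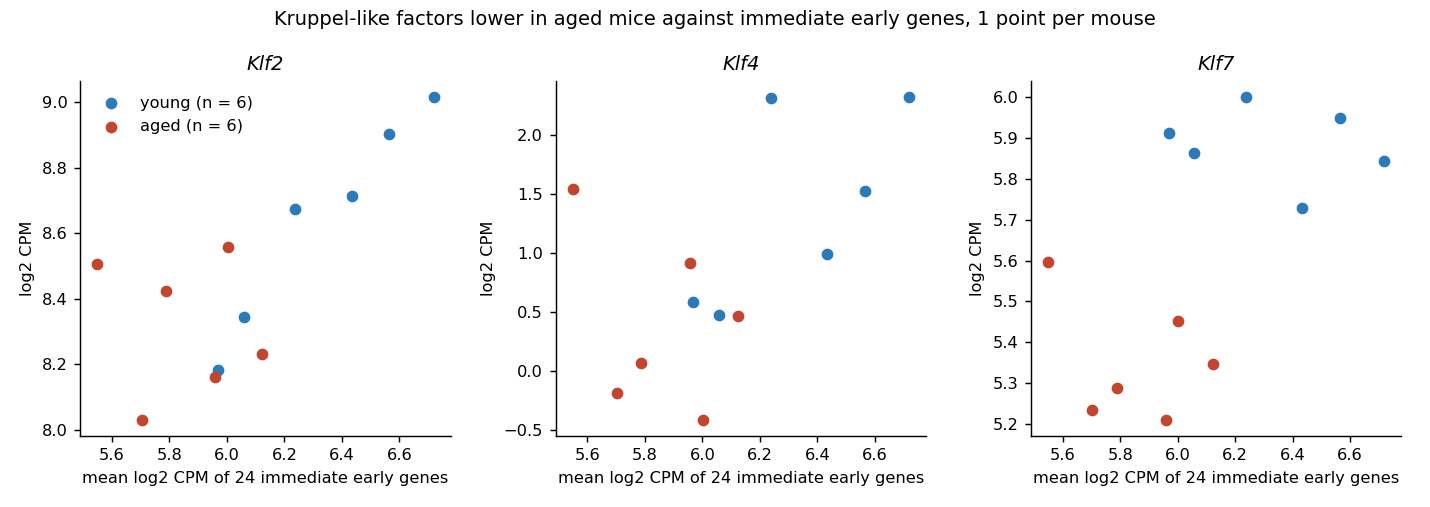
Log2 CPM of Klf2, Klf4 and Klf7 in each mouse against the mean log2 CPM of 24 immediate early genes, for young (blue, n = 6) and aged (red, n = 6) mice. Klf2 rises with the mean among the young mice (r of 0.97), and Klf7 separates the ages whatever the mean.

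The genes whose levels were most like each member across the 12 mice, after the mean of each age was subtracted, are given as a description, because they share libraries and depth. For Klf2 they were Zfp36, Rhob and Jun (Pearson's r of 0.92, 0.88 and 0.88), all in the immediate early list. For Klf4 they were Bub1, Cit and Dek (0.97 each), of which Bub1 is a kinase of the mitotic checkpoint and Cit acts in cytokinesis. For Klf7 they were Cux1, Phf2 and Bms1 (0.91 each), and for Klf6 they were Ykt6, Pglyrp4 and Plekha2 (0.93 each). The repressors had Dhrs9 nearest to Klf3 (0.96), Il18rap to Klf13 (0.96), Fbrsl1 to Klf9 (0.94), Itgax to Klf11 (0.92), Tmem219 to Klf10 (0.90) and Slc19a2 to Klf16 (0.89). Between members, r was 0.80 for Klf3 with Klf13, 0.79 for Klf3 with Klf6, 0.52 for Klf2 with Klf4, −0.66 for Klf2 with Klf10 and −0.70 for Klf3 with Klf4.

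Other cell populations were measured beside Klf4 and Klf2 because both genes are expressed unevenly among blood and vessel cells. The summed level of 10 proliferation genes was highest in young mice 5 and 6, at 1369 and 1327 CPM, the same mice that were highest for Klf4, and among aged mice it was highest in mouse 7, at 902 CPM, which also had the highest Klf4 of the aged. The range was 403 to 902 CPM in aged and 727 to 1369 CPM in young mice. Of these 10 genes 3 were lower and 0 higher in edgeR, DESeq2 and limma-voom alike, with 3 and 0 at an unadjusted p under 0.05, and the median was −0.05. This share lower is close to the 23% of all genes tested. With either length correction, or without aged mouse 2, 4, 5 or 6 or young mouse 5 or 6, 1 was lower. The largest fall was that of Mki67, a marker of cycling cells, at −2.01 (standard error 0.292, adjusted p = 0.000134, edgeR). Other genes of the list did not pass, among them Cdk1 at −0.04 and Plk1 at 0.01. The part of cycling cells in the Klf4 difference was not tested.

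Monocytes with low Ly6C, which a gate on high Ly6C would remove, are known for Nr4a1 expression and depend on that factor. Of 7 of their genes tested, 4 were lower and 1 higher in aged mice, with a median of −0.75, beside 23% lower and 22.4% higher among all genes tested. With aged mice 1, 2 and 4 alone, 0 were called lower. Ace, a peptidase, had the largest fall at −1.28 (standard error 0.378, adjusted p = 0.0128, edgeR), and Nr4a1, also one of the immediate early genes, the smallest p, at −1.07 (standard error 0.315, adjusted p = 0.0126, edgeR). Cd9 was higher, at 0.37 (adjusted p = 0.0205, edgeR). The summed level was 1448 to 1602 CPM in aged and 1360 to 1651 CPM in young mice, so the sums overlapped. Most of this sum came from Itgal, Cd9 and Spn, with means of 692, 540 and 249 CPM in aged and 775, 419 and 232 CPM in young mice. Nr4a1, Treml4 and Ace were at 23.0, 12.7 and 1.77 CPM in aged and 47.4, 27.1 and 4.13 CPM in young mice. The overlap of the sums therefore does not describe these less abundant genes. Of 10 genes of classical monocytes, 3 were higher and 1 lower, against the same shares of all genes. Adjusted for exon length 1 was higher and 1 lower, and without aged mouse 1, 2, 4 or 6 or young mouse 6, 2 were higher and 0 lower. The list summed to 12854 to 18000 CPM in aged and 15201 to 20170 CPM in young mice. Most of this sum came from Lyz2, at 8532 to 12749 CPM in aged and 10494 to 15033 CPM in young mice, and from Itgam. Ccr2, F13a1 and Fcgr1 reached at most 62.0, 44.0 and 9.92 CPM in any mouse, so the sum does not describe them. Cd14, the lipopolysaccharide coreceptor, had the largest rise, at 1.11 (standard error 0.175, adjusted p = 0.000249, edgeR), and Itgam was lower, at −0.22 (adjusted p = 0.0285, edgeR). The part of these populations in the Klf2 and Klf4 values was not tested.

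Endothelial cells express Klf2 and Klf4 strongly. Of 6 endothelial genes 2 were tested, and the summed level of the 6 was 11.1 to 20.96 CPM in aged and 5.09 to 9.22 CPM in young mice. Pecam1 was called higher, at 1.07 (adjusted p = 0.000401, edgeR), and Cdh5, Kdr, Emcn and Tek were at 0 in at least 1 young library and at most 3.01 CPM in any library. All 7 resident macrophage genes tested were higher in aged mice, with a median of 2.95, where 22.4% of all genes tested were higher. The list summed to 43.2 to 869 CPM in aged mice against 36.5 to 54.4 CPM in young mice. limma-voom called 3 of the 7, with a median of 2.05, and without aged mouse 1 edgeR called 6, with a median of 1.96. The complement gene C1qc had the largest rise and the smallest p, at 3.32 (standard error 0.623, adjusted p = 0.000799, edgeR). The highest sum, in aged mouse 1, came with a Klf2 level of 286 CPM and a Klf4 level of 1.67 CPM, both within the range of the other aged mice. Of 9 neutrophil genes tested 5 were higher and 0 lower in aged mice, beside 22.4% higher and 23% lower among all genes tested. They were led by S100a8 at 0.77 (adjusted p = 0.00563, edgeR). The list summed to 130730 to 153760 CPM in aged against 82730 to 129260 CPM in young mice. Adjusted for either length, 0 of the 9 were called, with medians of 0.06 and 0.02 in place of 0.36. Genes of T cells and red cells, which use Klf2 and Klf1, were mixed. Of the T and NK cell genes, Cd3e had at most 1 count and Cd8a 0 in every library, whereas Cd3d had 41 to 109 counts and Cd4 reached 25.3 CPM in an aged mouse, and the list summed to 8.52 to 37.9 CPM in aged and 6.82 to 12.1 CPM in young mice. Of the erythroid genes, Hba-a1 is listed at 0 in every library, which a filter on mapping quality can give for genes with near-identical copies, and Slc4a1 reached 9.37 CPM in an aged mouse, and the list summed to 1.18 to 16.2 CPM in aged and 0.391 to 1.5 CPM in young mice, with too few counts for a test in edgeR and 3 genes called higher by DESeq2. The part of endothelial, macrophage, neutrophil, lymphoid and erythroid cells in the values of the Kruppel-like factors was not tested.

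Of 11 regulators of monocyte development other than Klf4 that were tested, 2 were higher and 2 lower, with a median of 0.12. These shares are below the 22.4% higher and 23% lower among all genes tested. Adjusted for exon length, 4 were higher and 1 lower. Id2 had the smallest p, at 0.74 (standard error 0.110, adjusted p = 0.000155, edgeR). Cebpb, an activator of myeloid genes, had the largest fall, at −0.43 (standard error 0.126, adjusted p = 0.0123, edgeR).

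The TGF-beta pathway, which induces Klf10 and Klf11, had 19 genes tested, with 3 higher and 7 lower in aged mice and a median of −0.18, beside 22.4% higher and 23% lower among all genes tested. Adjusted for exon length, 5 were higher and 3 lower and the median was 0.12, so the balance of the list turned with that setting. Without young mouse 5, 1 was higher and 5 lower. The receptor gene Tgfbr3 had the largest rise, at 0.56 (standard error 0.208, adjusted p = 0.0394, edgeR), and another receptor gene, Bmpr1a, the smallest p, at 0.51 (standard error 0.0802, adjusted p = 0.000224, edgeR). The receptor gene Bmpr2 had the largest fall, at −0.47 (standard error 0.0925, adjusted p = 0.00108, edgeR). Smad7, an inhibitory member of the pathway, was called higher, at 42.4 ± 6.24 CPM (SD, n = 6) in aged and 32.3 ± 7.23 CPM (SD, n = 6) in young mice. Other inhibitory genes of the list, Ski, Skil, Smurf1 and Smurf2, were called lower, at −0.40, −0.18, −0.28 and −0.38, and Tgif1 and Tgif2 were not called. The list mixes such genes and BMP receptor genes with other genes of the pathway, so its balance gives no direction of signalling.

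Glucocorticoids induce Klf9, and 10 genes of that response were tested, of which 2 were higher and 1 lower in aged mice, with a median of −0.12, shares below the 22.4% higher and 23% lower among all genes tested. Without aged mouse 1 there were 4 higher and 0 lower, and without aged mouse 4 there were 2 higher and 3 lower. Ddit4, an inhibitor of mTOR signalling, had the largest rise, at 0.73 (standard error 0.239, adjusted p = 0.0216, edgeR). Anxa1, an anti-inflammatory annexin, had the smallest p, at 0.47 (standard error 0.0925, adjusted p = 0.00107, edgeR). Per1, a clock gene, had the largest fall, at −0.86 (standard error 0.301, adjusted p = 0.0305, edgeR). Fkbp5 and Tsc22d3, the responses most often used as a readout of the receptor, did not pass the test, at −0.10 (adjusted p = 0.533) and −0.14 (adjusted p = 0.607).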

How the data were processed

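Total RNA from sorted M-MDSCs was sequenced in pairs from stranded libraries. The deposited table holds raw fragment counts, made by the authors with featureCounts 2.0.0 over mm10 gene models, which required a mapping quality of at least 60. The same table gives the authors' exon length per gene, another unit, used here for levels per kilobase and for the length correction and its correlation. The aligner is not given in the sources used here. Mitochondrial genes were not analysed here. Ly6g was not among the genes counted, so the lack of that sort marker could not be checked.

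Genes were filtered with filterByExpr, normalized by TMM and compared between aged and young mice with the quasi-likelihood test of edgeR 4.0.16 in R 4.3.3, with age as the only term and Benjamini-Hochberg adjustment over all 9742 genes tested. Adjusted p-values under 0.05 were called. Log2 CPM used a prior count of 2. limma 3.58.1 (voom), DESeq2 1.42.0, other scaling, filters, length, GC content (longest GENCODE transcript), thinning and leaving out mice were alternatives. The script was tested on simulated data. Depth was 4613239 to 16300374 counts per library, and precision is lowest for genes with few counts. Floors cover counting error only. No 2 libraries of an age differed by less than counting noise (smallest chi-square per gene 1.67). The labels name separate mice but no litters, so p-values measure the spread between these mice.

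The 10 members and the gene lists were chosen with earlier results of these data known. Of each list described, the called genes with the largest rise, largest fall and smallest p were named, with all members, all tested Klf and Sp genes and the 3 genes nearest to each member (only the nearest for the repressors). Genes named beyond this rule, such as Mapk7, Crebbp, Kat2b, Sin3a, Smad7, S1pr1, Cdk1, Plk1 and Fkbp5, were chosen after their values were seen. Some genes of the lists are not reported here.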

Additional observations from a re-analysis of the deposited data

How the results depend on the processing

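Klf7 was called lower under every alternative run. Klf2 lost its call at −0.32 with limma-voom, −0.30 with upper quartile factors, −0.33 with at least 10 counts in every mouse, −0.34 with no filter, and −0.34 and −0.32 with only aged mice 1, 2 and 4 or 5, 6 and 7, and ranged from −0.42 to −0.26 with 1 mouse left out. Klf4 lost its call at −1.09 with upper quartile factors, −1.11 with the length correction, and −1.36 and −0.96 with those subsets, and ranged from −1.57 to −0.90 with 1 mouse left out. It was not tested with 10 counts in every mouse or after thinning. Klf13 passed at 0.41 and 0.36 with the deposited and GENCODE lengths, and Klf9 at 0.51 with GENCODE lengths and 0.64 with aged mice 1, 2 and 4, with 0.27 to 0.51 when 1 mouse was left out.

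Signs turned for genes near 0. Klf11 was −0.0057 with limma-voom, −0.0207 without TMM factors and −0.19 with aged mice 5, 6 and 7, and −0.0286 to 0.178 with 1 mouse left out. Klf16 was −0.0702 without TMM factors, −0.00554 with the length correction, −0.0662 with GENCODE lengths, −0.0669 with the GC correction, −0.105 after thinning and −0.051 with aged mice 1, 2 and 4, and −0.072 to 0.0738 with 1 mouse left out. Klf3 was −0.0181 without TMM factors.

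Of the 10 members, 1 was called with upper quartile factors, with at least 10 counts, with the replicate block and with aged mice 5, 6 and 7, and 5 with GENCODE lengths (2 higher, 3 lower). With 1 mouse left out, 1 to 3 were called, with 1 without aged mouse 2 or 6 or young mouse 5, 6 or 9. Of the other Klf and Sp genes, 1, Sp1, was called with either length. Immediate early calls numbered 7 with aged mice 1, 2 and 4 and 12 to 15 with 1 mouse left out. The cause of these changes was not tested.

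Replicate numbers 1, 2, 5 and 6 occur at both ages, and deviations of mice that share a number correlated at −0.14, −0.07, −0.24 and −0.25, so the numbers do not pair the mice. With the replicate block over these 8 mice Klf2 was −0.36 and Klf4 −1.44, neither called, and 6 immediate early genes were called. Without the block, the same 8 mice gave −0.39 for Klf2, not called, −1.60 for Klf4, called (adjusted p = 0.023, against 0.0948 with the block), and 9 immediate early genes. Of the genes of monocytes with low Ly6C, 0 were lower with the block and 2 without it. The block moved the calls over all genes from 4394 to 3446.

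The relation of Klf2 to the immediate early mean in young mice was 0.98 without TMM factors (adjusted p = 0.0556) and 0.966 to 0.996 with 1 mouse left out, where 5 mice remain. The GENCODE lengths, the GC correction and the split of the aged mice were chosen after seeing the data. GC content from a genome sequence was not run. Klf4 rests on 5 to 47 counts per library, and the effect of depth on its value was not tested.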
